A study of Mus musculus with 2 samples.

Results

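Liver endothelial cells were picked out of 2 single-cell RNA libraries by their own transcripts. One library came from C57BL/6 mice on chow and the other from C57BL/6 mice on a NASH diet (non-alcoholic steatohepatitis) rich in fructose, fat and cholesterol, each fed for 6.5 weeks. Livers were dissociated with collagenase and cells were recovered over Percoll steps, a preparation meant to keep both hepatocytes and non-parenchymal cells. The number of mice behind a library, their age and the hour of collection, as far as the sources used here go, are not stated. A barcode (1 droplet with a cell, several cells or free RNA) was a member when it met 4 conditions. It had at least 500 UMIs (unique molecular identifiers, each counting 1 captured RNA molecule), and mitochondrial genes made up at most 50% of them. At least 4 of the 10 genes Ptprb, Kdr, Clec4g, Dnase1l3, Gpihbp1, Bmp2, Ehd3, Gpr182, Stab2 and Fcgr2b had a UMI, and the 10 together made up at least 0.3% of UMIs. This gave 148 members of 13240 deposited barcodes, 74 of 7359 in chow and 74 of 5881 on the NASH diet. The rule used measured levels, so the 10 genes are given below as a description.

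Sinusoidal endothelial cells line the capillaries of the liver lobule. They lack a continuous basement membrane, are pierced by fenestrae, and clear waste from the blood through scavenger receptors such as the stabilins and the mannose receptor. They also send signals to their neighbours, known as angiocrine factors: Wnt2, Wnt9b and Rspo3 from cells near the central vein, Hgf to hepatocytes, and Bmp2 and Bmp6, which set hepcidin and so iron balance. In chronic injury these cells are known to take on a capillary-like state with basement membrane and fewer fenestrae.

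There is 1 library per diet and hence no replicate spread, so differences between diets carry no test. Intervals are exact 95% intervals (Clopper-Pearson for shares, Poisson for levels, conditional binomial for ratios). They cover counting error only and leave out the spread between cells. Where a count is 0, the limit given is instead 3 counts of the total. Levels are CPM, the UMIs of a gene per 1000000 UMIs, from UMIs summed over the members of a library. Differences are log2 ratios of (CPM + 10), NASH diet over chow, for the 7386 genes with at least 20 UMIs over both libraries' members, and their intervals are of the ratio without the added 10. Members held 476076 UMIs in chow and 606549 on the NASH diet, 0.665% and 1.54% of each library's total. The UMIs of a member ran from 581 over a median of 5339 to 17913 in chow and from 856 over 5501 to 30508 under the NASH diet. The median member had 2375 and 2406.5 genes. The median mitochondrial share was 10.4% and 16.7%, so the NASH diet members carried more mitochondrial RNA, and its part in the differences below was not tested. The libraries shared 69 barcode sequences, and 0 members of either library were among them.

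Endothelial barcodes were 1.62% (1.27 to 2.03) of the 4577 chow barcodes within the UMI and mitochondrial limits and, of the 4448 such NASH diet barcodes, 1.66% (1.31 to 2.08). The log2 ratio of these shares was 0.04 (−0.44 to 0.53). The mitochondrial limit mattered for this: at 30% the members were 68 and 62 and the log2 ratio was 0.73, outside that interval. Over all deposited barcodes the shares were 1.01% (0.790 to 1.26) and 1.26% (0.989 to 1.58). All 10 rule genes had a UMI in 54 chow and 48 NASH diet members, and 64 and 56 members had at least 8. The rule genes took a median of 1.55% of a member's UMIs in chow and 1.25% on the NASH diet. At the threshold of 0.3%, the lowest member stood at 0.388% in chow and 0.317% on the NASH diet, and the highest barcode with 4 rule genes that was left out stood at 0.223% and 0.214%. Those left out for this reason were 6 and 7 barcodes, and 8 and 3 at 0.3% or more had 3 rule genes. The plot of UMIs against rule gene share shows these.

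**Figure D1:**
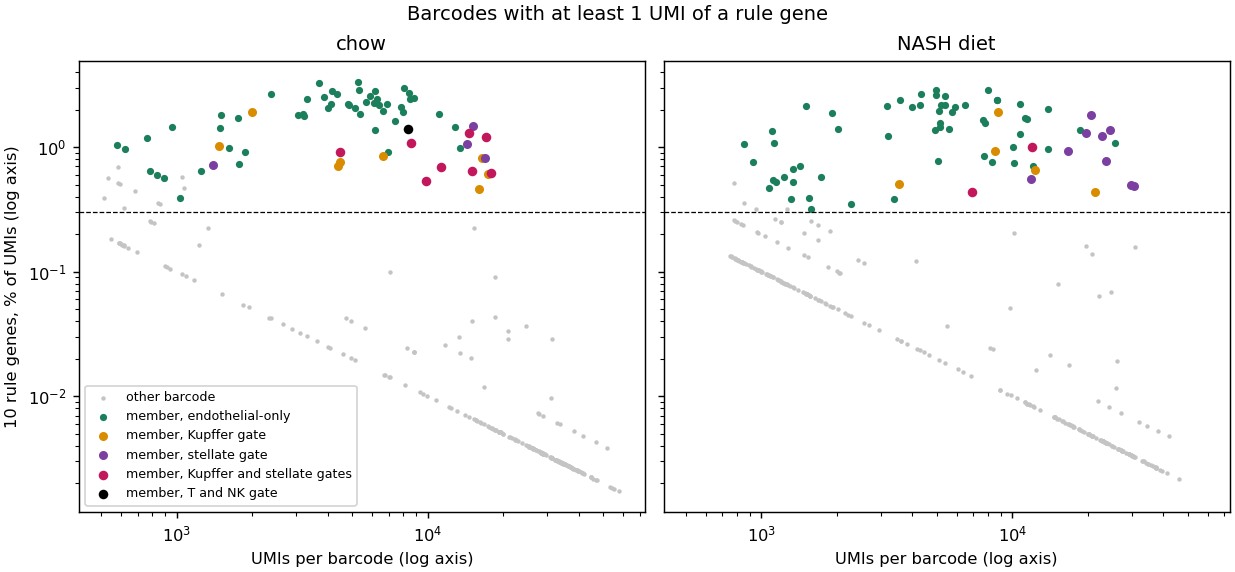
Each point is a barcode within the UMI and mitochondrial limits with at least 1 UMI of a rule gene; the x axis gives its UMIs and the y axis the share of UMIs from the 10 rule genes (both log axes), with chow on the left and the NASH diet on the right, marks for members that also passed another cell type's gate, and the dashed line at 0.3%. Members past none of the Kupffer, stellate and T cell gates (53 and 58, endothelial-only) have medians of 1.96% and 1.37%, and the members past a stellate gate have median UMIs of 14482 and 20534.

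Some members held the RNA of another cell type as well. A gate of the same form (at least 4 markers with a UMI, together at least 0.3% of UMIs) was applied for other cell types. The Kupffer gate, for the resident macrophages of the liver, was passed by 16 chow and 7 NASH diet members. The gate for stellate cells and fibroblasts, the collagen-making cells beside the sinusoid, was passed by 12 and 11, and 8 and 2 passed both. The T and NK gate was passed by 1 and 0. Members past the stellate gate were deep, with a median of 14482 and 20534 UMIs. Of all barcodes within limits past the stellate gate, 12 of 14 in chow (85.7%, 57.2 to 98.2) and 11 of 27 under the NASH diet (40.7%, 22.4 to 61.2) were endothelial members. For the Kupffer gate this was 16 of 84 (19.0%) and 7 of 97 (7.22%). No doublet caller was applied.

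Hepatocyte RNA was read in most members. The hepatocyte gate was passed by 50 chow and 42 NASH diet members, and by 4525 and 4398 of all barcodes within limits. Hepatocyte markers made up a median of 0.401% of a chow member's UMIs (range 0.137% to 4.92%) and 0.337% of a NASH diet member's (0.0833% to 4.52%), against medians of 7.03% and 5.99% in the other barcodes within limits. All 10 hepatocyte markers had at least 20 UMIs in the members of both libraries. Markers of further cell types were low. Of the B and plasma cell markers, 2 of 8 in chow and 3 of 8 on the NASH diet had any UMI, and Cd79a, Ms4a1, Ighd and Pax5 were among those at 0 in both. Neutrophil markers summed to 3 and 2 UMIs and dendritic cell markers to 12 and 20. Cholangiocyte markers summed to 0 UMIs in chow and 29 on the NASH diet. Because the gated members weigh heavily in sums of UMIs, values are also given where they bear on a result for the members past none of the Kupffer, stellate and T cell gates, 53 in chow with 251827 UMIs and 58 under the NASH diet with 333035. These are called endothelial-only members here, after those gates alone, and the subset was added after the data had been seen. The hepatocyte gate was not among them, and 45 of the 53 and 41 of the 58 passed it. In the 50% of each library's members with the least hepatocyte RNA, the median log2 ratios of the scavenger and immediate early lists described below were −0.32 and 0.55.

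The members carried the markers of sinusoidal endothelium. Clec4g, a C-type lectin of the sinusoidal surface (ENSMUSG00000074491, GRCm38 8:3707064-3720651, minus strand), had 2164 CPM (2033 to 2300) in chow members and 1255 (1167 to 1347) in NASH diet members, against 0.927 and 2.32 CPM in all other barcodes. Kdr, the main VEGF receptor, had 1481 and 1675 CPM against 0.703 and 1.80, and the receptor phosphatase Ptprb had 1911 and 1957 against 0.942 and 2.65. The rule chose members by these genes, so the gap itself is not a result. Outside the rule, 25 of 26 endothelial markers had at least 20 UMIs in the members of each library, and the last, the transcription factor Erg, did not. All 25 were at least 2-fold above all other barcodes in both libraries, with a median of 5.18 for the smaller of the 2 log2 ratios (range 1.85 to 6.99). Of all 4107 genes with that many UMIs, 63.8% were also past the fold, and their median was 1.40. The 15 genes with the largest smaller ratio were Aqp1, Sparc, Dcn, Mrc1, Egfl7, Adgrf5, Timp3, Eng, Igfbp7, Stab1, Tinagl1, Maf, Klf2, Plxnc1 and Tspan7. Aqp1, a water channel, had 2008 and 1634 CPM in members against 0.731 and 2.91 elsewhere. Mrc1, the mannose receptor, had 1340 and 1121 CPM against 4.05 and 2.68.

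Dcn stands apart in that group. This collagen-binding proteoglycan of stellate cells and fibroblasts had 2810 and 2750 CPM but was read in 18 chow and 18 NASH diet members, against 63 and 64 members for Aqp1. Of its 1338 and 1668 UMIs, 3 and 15 were in endothelial-only members. Reln, listed as a lymphatic marker and also known from stellate cells, was likewise read in 12 and 12 members. Of the other lymphatic genes, Pdpn and Mmrn1 had 0 UMIs in both libraries, which allows up to 4.05% of the 74 members of each to hold one, and the 2 gene IDs named Ccl21a had 0 and 1 UMIs together. Prox1, the factor that sets lymphatic identity and is also made by hepatocytes, had 8 and 13 UMIs in 8 and 7 members. Flt4, a VEGF receptor of lymphatic and also of sinusoidal endothelium, had 678 and 488 CPM (−0.47, −0.71 to −0.24) in 63 and 56 members, and −0.67 in endothelial-only members. Large vessel genes differed in level. Of the 13 listed, 7 were measured. Bgn, a proteoglycan, had 861 and 971 CPM, Ly6a (Sca-1) 414 and 317 CPM (−0.38, −0.68 to −0.09), and the chaperone Clu 134 and 247 CPM (0.83, 0.45 to 1.32), with 70.7% of its NASH diet UMIs in 1 barcode. The transcription factor Sox17 had 46.2 and 79.1 CPM (0.67, 0.02 to 1.57) in 18 and 28 members. Vwf, the clotting factor carrier of large vessels, had 2 and 9 UMIs in 2 and 4 members, and Cd34 had 10 and 18 UMIs in 8 and 13. Gja5, an arterial connexin, had 0 and 6 UMIs. Ly6c1 had 0 and 6, the matrix proteins Fbln2 and Eln 0 and 10 and 3 and 5, and the adhesion molecule Selp 9 and 2.

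**Figure D2:**
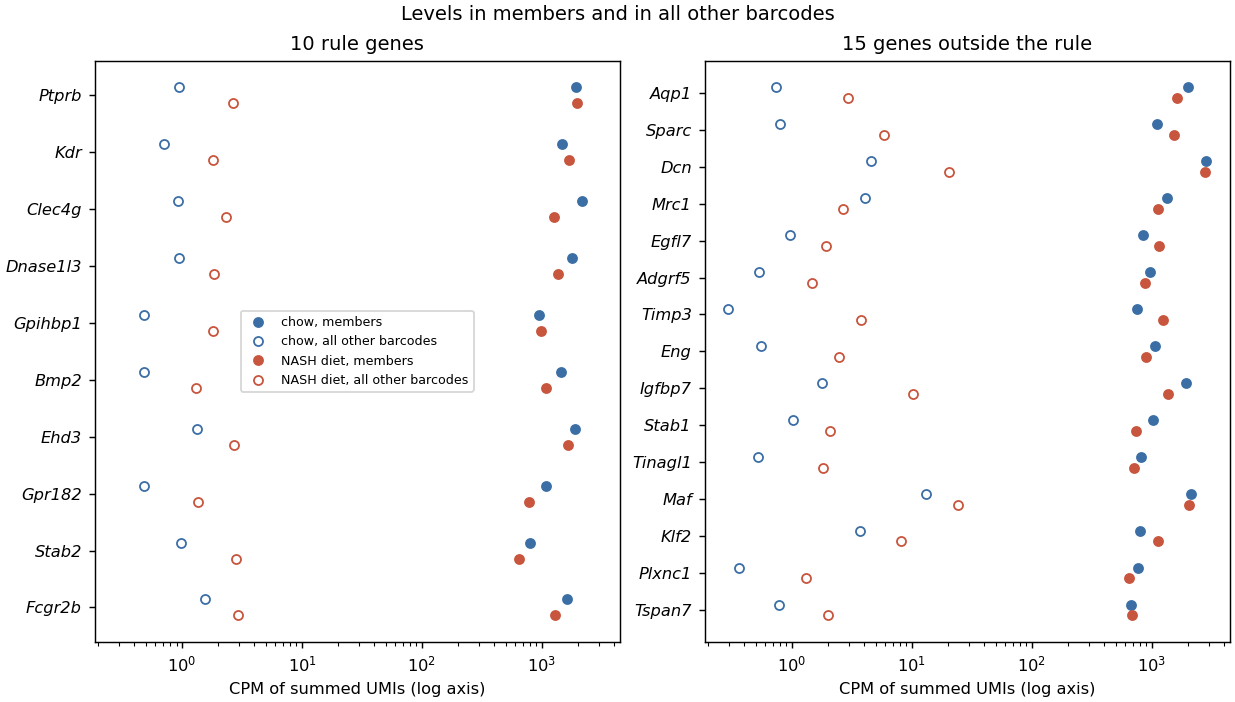
Levels in CPM of summed UMIs (log axis) of the 10 rule genes (left) and of the 15 genes outside the rule that were highest over other barcodes (right), for members (filled) and all other barcodes (open) of the chow and NASH diet libraries. Members of both libraries lie between 648 and 2810 CPM for all 25 genes, and all other barcodes lie at or under 24.0 CPM.

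Promoters of 3 of these genes are printed because they are among the most read in members and differ in the motif searched. The RefSeq table (GRCm38.p6) held 19 of the 36 endothelial genes (10 rule genes and 26 outside markers). The motif AGGAAG, the core that ETS factors such as Ets1, Fli1 and Erg bind, was searched on both strands in the 250 bases before each start. It was found in 12 of 19 (63.2%) endothelial promoters and in 29.2% of all 27025 promoters in the table. CGGAAG, the other ETS core, was in 2 of 19 against 13.8%. Either core was in 12 of 19 (63.2%) against 39.0% of all. The GATA motif AGATAA was found in 0 of 19 promoters, against 10.3% of all. The forkhead motif TAAACA was found in 1 of 19 (5.26%), against 3251 of the 27025. The SOX motif spelled ACAAAG was found in 2 of 19, against 16.5%. A match is a run of letters, not a shown binding site. Clec4g, at chr8:3720652-3720901 on the minus strand, Aqp1, at chr6:55336049-55336298 on the plus strand, and Kdr, at chr5:75978456-75978705 on the minus strand, are shown 5′ to 3′, with ETS motif matches on either strand in capitals. Clec4g held 3 matches, of which a pair overlaps, Aqp1 held 1 and Kdr 0. Ehd3, also among the most read, held 0 and is not printed.
Clec4g: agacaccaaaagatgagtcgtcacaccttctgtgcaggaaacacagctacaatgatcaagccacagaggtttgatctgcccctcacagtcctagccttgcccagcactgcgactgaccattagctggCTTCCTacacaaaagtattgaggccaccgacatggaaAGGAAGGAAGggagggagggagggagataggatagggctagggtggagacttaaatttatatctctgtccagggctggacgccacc
Aqp1: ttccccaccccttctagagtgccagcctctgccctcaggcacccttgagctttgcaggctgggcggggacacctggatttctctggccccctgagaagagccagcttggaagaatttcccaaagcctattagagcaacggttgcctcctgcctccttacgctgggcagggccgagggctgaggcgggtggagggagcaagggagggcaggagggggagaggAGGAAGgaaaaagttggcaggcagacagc
Kdr: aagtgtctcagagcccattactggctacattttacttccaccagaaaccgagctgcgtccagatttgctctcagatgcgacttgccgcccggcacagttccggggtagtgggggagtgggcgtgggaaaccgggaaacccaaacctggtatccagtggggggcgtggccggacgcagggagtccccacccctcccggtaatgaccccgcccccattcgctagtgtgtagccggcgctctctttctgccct

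Between the diets, most genes of the members had like levels. The median log2 ratio of the 7386 genes was 0.00, with 209 genes (2.83%) at least 2-fold higher in NASH diet members and 173 (2.34%) at least 2-fold lower. In the endothelial-only members 4978 genes reached 20 UMIs, 4.32% were at least 2-fold higher and 3.68% at least 2-fold lower. These counts are of genes past a fold and carry no test. Their shares are the background for the counts past the fold in each list below. Among genes at least as high in members as in other barcodes of both libraries, those with the largest ratios included genes read in few barcodes. Mgp, a matrix protein, had 0 and 57 UMIs, and the 57 came from 1 barcode. The collagens Col1a1 (17 and 234 UMIs) and Col1a2 (39 and 410) had 56.0% and 55.1% of their NASH diet UMIs in 1 barcode. At the low end stood the Kupffer genes Clec4f (811 and 186 CPM, log2 ratio −2.06) and Vsig4 (479 and 104 CPM, −2.10), with Wfdc17, Hmox1 and Siglece, and Ngfr, a stellate receptor. The 10 Kupffer markers had a median of −1.56, beside 16 and 7 members past the Kupffer gate. Without members past the Kupffer gate the log2 ratio of Wfdc17 turned from −2.23 to 2.11.

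Genes read across many members were taken apart from these. Of the 6217 measured genes at least as high in members as elsewhere, 2706 were read in at least 25 members of 1 library. Of these, 34 were at least 2-fold higher and 27 at least 2-fold lower. Among all 7386 measured genes, 2.83% were at least 2-fold higher and 2.34% at least 2-fold lower, larger shares than among these 2706. In the endothelial-only members 21 of the 34 and 23 of the 27 were still past the fold. The genes were picked by their ratio over all members, and the endothelial-only members hold part of the same UMIs, so this is a description. This grouping and the genes named from it were chosen after their values had been seen.

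Fabp4, a fatty acid carrier of capillary endothelium (ENSMUSG00000062515, GRCm38 3:10204088-10208576, minus strand), was the 1 gene past the fold in a list of 19 genes of endothelial lipid handling. It had 569 CPM (503 to 641) in chow members and 1457 (1363 to 1557) in NASH diet members, and was read in 40 and 67 of 74 members. The NASH diet level was higher, with a log2 ratio of 1.34 (1.16 to 1.56), and 0.91 (0.70 to 1.15) in endothelial-only members. With each member thinned to 1000 UMIs, 26 of 67 chow members (38.8%, 27.1 to 51.5) and 46 of 72 NASH diet members (63.9%, 51.7 to 74.9) had a Fabp4 UMI, against 0.368% and 1.25% of hepatocyte barcodes with a median of 20943.5 and 3681 UMIs before thinning. Unthinned, the shares were 54.1% and 90.5%, and thinning left out 7 and 2 members. The scavenger receptor Cd36, which takes up fatty acids, had 567 and 809 CPM (0.51, 0.30 to 0.73), and 0.29 in endothelial-only members. Gpihbp1, which holds lipoprotein lipase on the capillary wall and is a rule gene, had 943 and 986 CPM (0.06, −0.11 to 0.24). Over the 14 of 19 measured genes of endothelial lipid handling the median was −0.04, with 1 higher and 0 lower past the fold. Outside that list, and named after their values were seen, the fatty acid desaturase Scd2 had 39.9 and 148 CPM (1.67, 1.17 to 2.69) in 13 and 33 members, and Sptlc2, a subunit of the enzyme that starts sphingolipid synthesis, 185 and 77.5 CPM (−1.16, −1.80 to −0.73) in 41 and 30.

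A pair of retinoid genes was higher in NASH diet members. Cyp26b1, which breaks down retinoic acid (ENSMUSG00000063415, GRCm38 6:84571414-84593908, minus strand), had 113 CPM (85.2 to 148) in chow and 551 (493 to 613) on the NASH diet, in 25 and 50 members. Its log2 ratio was 2.18 (1.86 to 2.72), endothelial-only members had 147 and 724 CPM, and it was at 0.0703 and 0.670 CPM in other barcodes. Rarb, a retinoic acid receptor, had 10 and 50 UMIs in 8 and 27 members (1.58, 0.98 to 3.12), and 1.75 in endothelial-only members. No list of retinoid genes was used, so these are single genes.

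Genes of the immediate early response, which are induced within minutes and also by tissue digestion, had the highest median of the lists with at least 5 measured genes. All 20 were measured and 18 were above 0, against 50.2% of all 7386 measured genes. At least 2-fold higher were 4 (Egr1, Hspa1a, Fosb and Fos), against 2.83% of all, and 0 were at least 2-fold lower. The list's median was 0.74, and 0.81 in endothelial-only members, against 0.04 for the same genes in all other barcodes. Egr1 had 162 CPM (128 to 202) in chow members and 643 (581 to 710) in NASH diet members, a log2 ratio of 1.93 (1.64 to 2.36). In other barcodes it was lower on the NASH diet, at 157 and 91.0 CPM (−0.72). Fos had 372 and 831 CPM (1.14, 0.91 to 1.42) and Fosb 132 and 331 (1.26, 0.91 to 1.76). The chaperone Hsp90aa1 was lower, at 353 and 231 CPM (−0.59, −0.95 to −0.28). Both libraries were digested, and whether digestion moved these genes was not tested.

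Transcription factors that specify endothelium leaned higher. Of 25 of 27 measured, 20 were above 0, against 50.2% of all measured genes, 1 (Hhex) was past the fold, and the median was 0.48. In endothelial-only members the median was 0.19 and 17 of 24 were above 0, against 2350 of all 4978 genes there. Hhex, a homeobox factor of liver endothelium and hepatocytes, had 58.8 CPM (39.1 to 85.0) and 155 (125 to 190) in 15 and 42 members (1.26, 0.78 to 2.06). Other barcodes had 81.7 and 102 CPM of it. Maf, a factor of sinusoidal identity, had 2136 and 2031 CPM (−0.07, −0.19 to 0.05), and −0.26 (−0.41 to −0.11) in endothelial-only members. The shear-stress factors Klf2 (796 and 1119 CPM, 0.49) and Klf4 (256 and 387 CPM, 0.58) were higher over all members, and came to 0.20 and 0.10 in endothelial-only members.

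Scavenger and uptake receptors leaned lower. Of the 12 of 14 measured, 9 were below 0, against 49.8% of all measured genes, and none was past the fold in either direction. The interval lay below 0 for 7 of the 12, against 9.07% of all measured genes. The median was −0.31 (−0.53 to −0.09, the medians of the lower and upper bounds, as for each list below), and −0.51 in endothelial-only members, against 0.14 for the same genes in all other barcodes. Clec4g, a rule gene given above, had the largest difference (−0.78, −0.92 to −0.65). Msr1, a macrophage-type scavenger receptor also known from periportal endothelium, had 300 and 171 CPM (−0.77, −1.19 to −0.43). Stab1, one of the stabilins that clear hyaluronan and modified proteins, had 1029 CPM (940 to 1125) and 730 (664 to 802), a log2 ratio of −0.49 (−0.68 to −0.31). Stab2, the other, had 796 and 648 CPM (−0.29, −0.50 to −0.09), Fcgr2b, which takes up immune complexes, 1613 and 1286 (−0.32, −0.47 to −0.18), and Mrc1 −0.26 (−0.42 to −0.10). The 3 scavenger receptors above 0 were Cd36, Scarf1 and Cd93, and of these the interval of Cd36 lay above 0. Members were chosen on Clec4g, Stab2 and Fcgr2b. Without these 3, the list had 9 measured genes with a median of −0.26, 6 of them below 0 and 4 with the interval below 0, and a median of −0.24 in endothelial-only members. Of the rule genes themselves, 7 of 10 were below 0, with a median of −0.31. In endothelial-only members 10 of 10 were below 0, with a median of −0.48. The 26 endothelial markers outside the rule had a median of −0.13 over the 25 measured, 17 of them below 0. Their median in endothelial-only members was −0.22, with 20 of 25 below 0, beside −0.24 for the scavenger list without rule genes. Lower levels there were thus not particular to scavenger receptors.

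Of the angiocrine ligands, 18 of 22 were measured, with a median of −0.23 (−0.72 to 0.40). At least 2-fold higher was 1, against 2.83% of all measured genes, and at least 2-fold lower were 3, against 2.34%. Without the rule gene Bmp2 the median was −0.22 over 17, and −0.04 in endothelial-only members. The 3 were Inhbb, Bmp6 and Hgf, the last named after its values were seen. Inhbb, a subunit of activin B, had 179 CPM (143 to 221) and 59.4 (41.6 to 82.2), in 36 and 21 members (−1.44, −2.19 to −1.01). Bmp6, the iron-regulating ligand, had 214 CPM (175 to 260) and 84.1 (62.6 to 111), in 42 and 28 members (−1.25, −1.86 to −0.85). Hgf, the hepatocyte growth factor, had 365 CPM and 160 (−1.14, −1.57 to −0.83), and was −0.91 in endothelial-only members, no longer past the fold. Inhbb and Bmp6 were further apart there, at −1.69 and −1.61. Bmp2, a rule gene, had 1449 and 1088 CPM (−0.41, −0.57 to −0.26). The BMP target Id1 had 176 and 267 CPM (0.57, from 84 and 162 UMIs) and Id3 1006 and 958 (−0.07). Igfbp7, the most read ligand of the list, had 1918 and 1359 CPM (−0.49, −0.64 to −0.36). The matricellular Ccn1 was the 1 past the fold upward, at 18.9 and 114 CPM in 7 and 20 members (2.10, 1.58 to 3.78). Other barcodes had 18.8 and 26.6 CPM of it, and 27.5% of its NASH diet UMIs were in 1 barcode. In endothelial-only members its log2 ratio was 1.98, from 5 UMIs in 5 chow members and 36 in 8 NASH diet members. Kitl, the ligand of Kit, had 65.1 and 130 CPM (0.90, 0.38 to 1.65), and 0.40 in endothelial-only members.

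**Figure D3:**
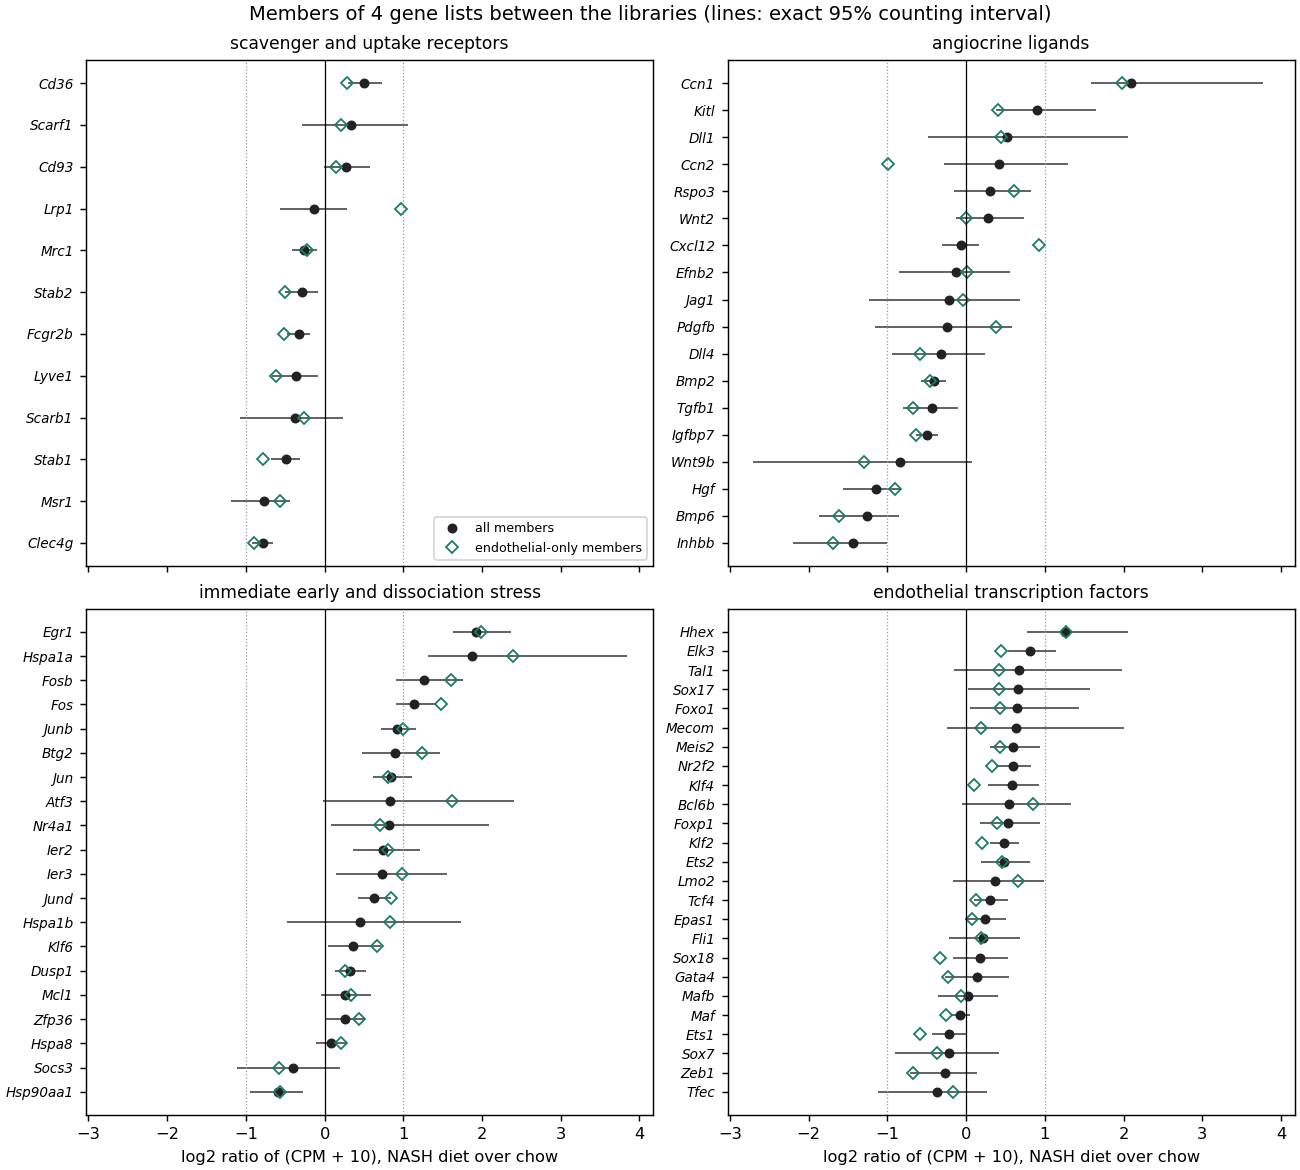
All measured members of 4 gene lists; the x axis is the log2 ratio of (CPM + 10), NASH diet over chow, filled points are all members with their exact 95% counting interval, open diamonds are endothelial-only members, and dotted lines mark 2-fold. Clec4g lies lowest among the scavenger receptors (−0.78), Inhbb, Bmp6 and Hgf lie beyond the 2-fold line among the ligands, and 18 of 20 immediate early genes lie above 0.

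Vessel tone genes differed in both directions. Gja4, the gap junction protein connexin 37 (ENSMUSG00000050234, GRCm38 4:127311421-127314039, minus strand), had 351 CPM (300 to 408) in chow and 117 (91.4 to 148) under the NASH diet, in 45 and 30 members. The chow level was higher, with a log2 ratio of −1.51 (−2.01 to −1.17), and −1.68 in endothelial-only members. Ednrb, the endothelin B receptor, had 132 and 279 CPM (1.02, 0.65 to 1.52). It was read in 15 and 20 members, with 27.8% of its NASH diet UMIs in 1 barcode. In endothelial-only members its log2 ratio was 1.52, from 20 UMIs in 4 chow members and 82 UMIs in 9 NASH diet members. Thbd, the thrombin cofactor thrombomodulin, had 246 and 132 CPM (−0.85, −1.33 to −0.48). Over the 11 of 15 measured genes of shear response and vascular tone, 2 were at least 2-fold higher (Ednrb and Ptgis, the latter with 2 and 18 UMIs) and 1 at least 2-fold lower (Gja4), with a median of −0.30. Ptgis had 0 UMIs in the endothelial-only members of both libraries. There 9 genes were measured, 1 was at least 2-fold higher (Ednrb) and 2 at least 2-fold lower (Gja4 and Thbd), with a median of −0.48. Clotting factor F8 had 546 and 551 CPM (0.01, −0.23 to 0.25), and the 5 measured of 12 haemostasis genes had a median of 0.01.

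Icam1, the leukocyte adhesion molecule, had 187 CPM (150 to 230) and 62.6 (44.3 to 86.0) in 36 and 22 members (−1.44, −2.17 to −1.01), and −1.64 in endothelial-only members. It was lower in other barcodes as well, at 15.1 and 6.05 CPM. Vcam1 had 342 and 270 CPM (−0.33, −0.66 to −0.02). The chemokine Cxcl9 had 214 and 350 CPM (0.68), with 52.0% and 58.5% of its UMIs in 1 barcode of each library, and −0.52 in endothelial-only members. Over 16 of 20 measured adhesion molecules and chemokines, 1 was at least 2-fold higher (Cxcl2, with 3 and 18 UMIs), against 2.83% of all measured genes. At least 2-fold lower were 2 (Icam1 and Cxcl10), against 2.34% of all. The median was 0.19 in all members and −0.39 in endothelial-only members. Nfkb2, a subunit of NF-kB named after its values were seen, had 27 UMIs in 24 chow members and 6 in 5 NASH diet members. Il4ra, the interleukin 4 receptor, had 170 and 57.7 CPM (−1.41, −2.18 to −0.97).

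Interferon response genes leaned lower. All 23 were measured and 22 were below 0, against 49.8% of all measured genes. The interval lay below 0 for 10, against 9.07% of all. At least 2-fold lower were 3 (Igtp, Ifit3 and Iigp1), against 2.34% of all, and 0 were at least 2-fold higher. The median was −0.47 (−1.17 to 0.04), and −0.05 for the same genes in all other barcodes. In endothelial-only members 15 of 20 were below 0, against 2628 of all 4978 genes, and the median was −0.18. There 1 gene was at least 2-fold higher and 1 at least 2-fold lower. Ifitm3, a membrane restriction factor, had 2092 CPM (1964 to 2226) and 1269 (1181 to 1362), a log2 ratio of −0.72 (−0.86 to −0.58). Other barcodes had 847 and 546 CPM (−0.62). Ifit3 had 101 and 34.6 CPM (−1.31), and Igtp 84.0 and 24.7 CPM (−1.44), with 45.0% of its chow UMIs in 1 barcode.

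Class I antigen presentation genes were at like or lower levels in NASH diet members. B2m, the light chain of class I, had 4094 and 3817 CPM (−0.10, −0.19 to −0.01) and H2-K1, a heavy chain, 2779 and 2641 (−0.07, −0.18 to 0.03). H2-D1, another heavy chain, was lower, at 2166 and 1505 CPM (−0.52, −0.65 to −0.39). The immunoproteasome subunit Psmb8 had 170 and 94.0 CPM (−0.79), and −0.08 in endothelial-only members. Over 16 of 17 measured antigen presentation genes the median was −0.06, with 1 at least 2-fold higher (Ciita, with 3 and 23 UMIs) and 0 at least 2-fold lower. In endothelial-only members the median was 0.15 over 12 measured, with 9 above 0 and 4 at least 2-fold higher, the class II genes given next. Class II UMIs (H2-Aa, H2-Ab1, H2-Eb1 and Cd74) lay in few members. Of 1141 in chow, 1087 were in members past another gate. Of 2030 on the NASH diet, 1054 were in members past another gate and 970 of the other 976 in 3 endothelial-only members with at least 10 each. H2 genes resemble each other closely, and reads could be split among them.

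Genes of capillarization and basement membrane showed no common direction. Over 18 of 22 measured, 9 were above and 9 below 0, none was past the fold in either direction, and the median was 0.01 (−0.69 to 0.63). In endothelial-only members the median was −0.34, with 11 of 16 below 0. Hspg2, the basement membrane proteoglycan perlecan, had 492 and 595 CPM (0.27, 0.03 to 0.52), and −0.04 in endothelial-only members. Sparc, a matricellular collagen-binding protein, had 1096 and 1525 CPM (0.47) with 21.2% of its NASH diet UMIs in 1 barcode, and −0.40 in endothelial-only members. Cd9, a tetraspanin, was higher in both sets, at 149 and 241 CPM (0.66, 0.27 to 1.12), and 0.73. Vwf and Cd34, markers of capillarized sinusoids, had the few UMIs given above. Among the 15 of 18 measured fenestra, caveola and junction genes the median was 0.04, and none was past the fold in either direction. The caveola coat protein Cavin2 had 359 and 656 CPM (0.85, 0.61 to 1.14), and 0.52 in endothelial-only members, and the junction cadherin Cdh5 735 and 626 (−0.23, −0.44 to −0.02).

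Some lists had small median differences or little depth. The 9 of 14 measured Notch pathway genes had a median of 0.23, led in depth by Hes1 (347 and 407 CPM, 0.23) and Notch1 (248 and 346 CPM, 0.47), and −0.01 in endothelial-only members. VEGF, angiopoietin and other vascular receptors had a median of −0.13 over 20 of 22, with 14 below 0 and 1 past the fold upward (Ednrb). In endothelial-only members their median was −0.21, with 19 of 20 below 0, against 2628 of all 4978 measured genes there. Members were chosen on Kdr and Ptprb of this list. Without these 2 rule genes, the median was −0.15 in all members. In endothelial-only members it was −0.26, with 17 of 18 below 0. Lysosome and cathepsin genes had a median of −0.07 over 16 of 16. The cathepsin Ctsb had 2065 and 1675 CPM (−0.30, −0.43 to −0.17) and the activator Psap 1475 and 1873 (0.34, 0.21 to 0.48). Of 22 cholesterol synthesis genes 10 were measured, and their median was −0.33 in members against −1.18 in other barcodes. Hmgcs1, an early enzyme of that pathway, had 60.9 and 39.6 CPM in members (−0.52, −1.47 to 0.21) and 524 and 29.5 CPM in other barcodes. The members held 29 and 24 of its UMIs, and its interval spanned 0.

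**Figure D4:**
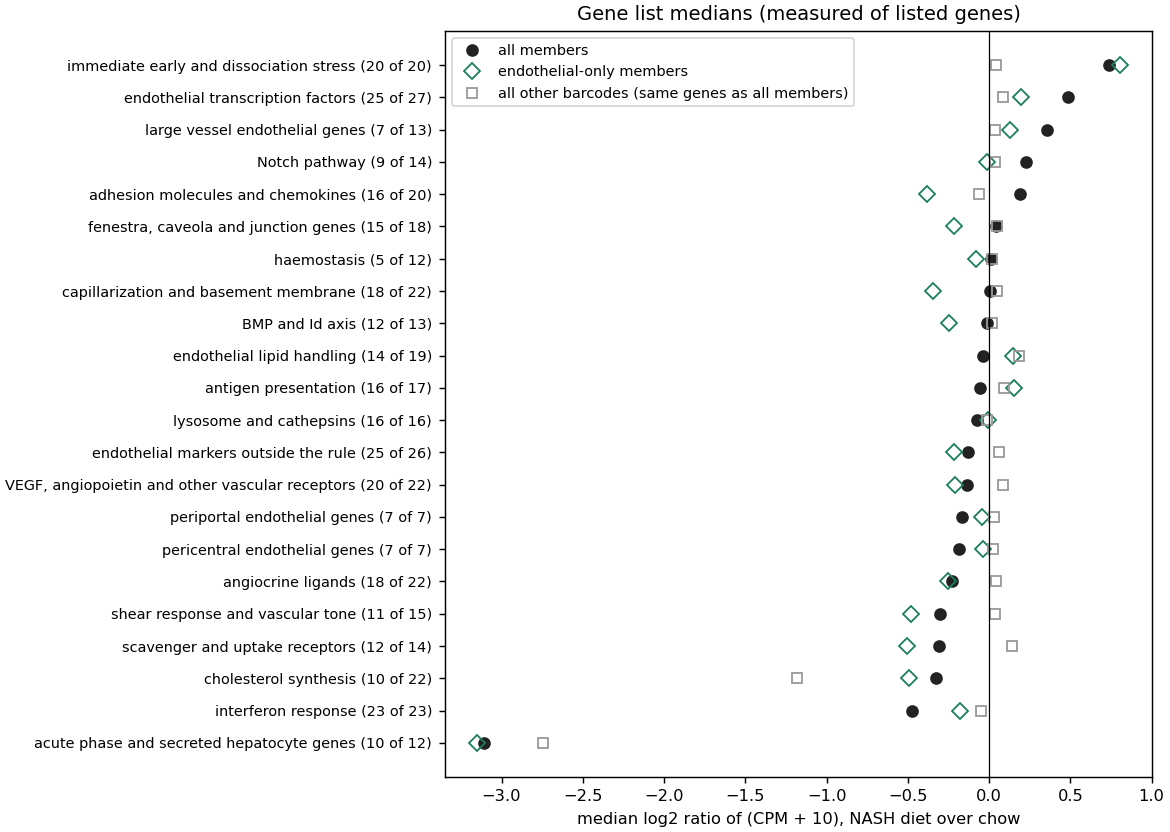
Median log2 ratio of (CPM + 10), NASH diet over chow (x axis), of gene lists with at least 5 measured genes, for all members (filled), endothelial-only members (diamonds) and the same genes in all other barcodes (squares). The rule genes and the marker lists of other cell types are not plotted. Immediate early genes lie highest in members (0.74) but near 0 in other barcodes (0.04), and acute phase genes lie lowest in both (−3.11 and −2.75).

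Acute phase and secreted hepatocyte genes differed most among the lists. The 10 measured of these 12 genes were all at least 2-fold lower in NASH diet members. Their median was −3.11, and −2.75 for the same genes in all other barcodes. Hepatocyte markers as a list differed less. The 10 had a median of −0.62 in members, with 8 below 0 and 2 at least 2-fold lower, and 0.45 in other barcodes. Saa2, a serum amyloid protein, had 2245 and 23.1 CPM in members and 14224 and 221 CPM in other barcodes. It was read in 72 chow and 9 NASH diet members. Saa1 and Saa2 are near-identical, and their separate values are uncertain. Their levels in members were under those in other barcodes in both libraries, and the part that free hepatocyte RNA had in the members' values was not tested. Dbp, a factor whose level follows the time of day, differed in the same direction in both sets of barcodes. It had 12.6 and 140 CPM in members (2.73, 2.29 to 4.96) and 7.84 and 70.0 CPM elsewhere (2.17). Nr1d1, another clock gene, had 54.6 and 186 CPM in members (1.60, 1.15 to 2.45), but 42.0 and 23.5 CPM elsewhere (−0.63). Fkbp5, a target of glucocorticoids, had 105 and 24.7 CPM in members (−1.73, −3.03 to −1.23) and 19.0 and 24.5 CPM elsewhere.

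Genes known to differ with position in the lobule were compared within each library. Endothelial cells near the central vein are known to express Wnt2, Wnt9b and Rspo3, and those near the portal vein Efnb2, Dll4, Ltbp4, Ntn4 and Msr1. Endothelial-only members were split by a Wnt2 UMI, 21 with and 32 without in chow and 27 with and 31 without on the NASH diet. Members with Wnt2 were deeper, with medians of 5309 and 3997 UMIs in chow and 5755 and 3984 under the NASH diet, so levels were taken per UMI. All 6 other pericentral genes were higher with Wnt2 and all 7 periportal genes lower, in both libraries. The interval of the log2 ratio spanned 0 for Kit, Dll4 and Jag1 in chow. On the NASH diet it did so for Wnt9b (5 and 0 UMIs), Cdh13, Ptgs1, Efnb2 (−1.44 to 0.62), Adgrg6 and Jag1. The share of all genes on each side of 0 was not taken for this split, so the counts of genes by direction have no background beside them. Rspo3, which amplifies Wnt signals, had 120 CPM with Wnt2 and 0 without in chow, from 14 and 0 UMIs, and 130 and 29.9 on the NASH diet, from 26 and 4 UMIs. Kit had 232 and 155 CPM in chow and 246 and 67.4 on the NASH diet, and the chow interval of its log2 ratio spanned 0 (0.55, −0.30 to 1.47). Ntn4, a netrin, had 137 and 666 CPM in chow (−2.20, −3.15 to −1.50) and 286 and 651 under the NASH diet (−1.16, −1.70 to −0.69). Msr1 had 85.7 and 525 CPM in chow (−2.48, −3.74 to −1.65) and 145 and 314 on the NASH diet (−1.06, −1.85 to −0.40). Ltbp4, which binds latent TGF-beta, had 292 and 784 CPM in chow and 281 and 614 on the NASH diet. The difference of these contrasts between libraries was not tested.

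**Figure D5:**
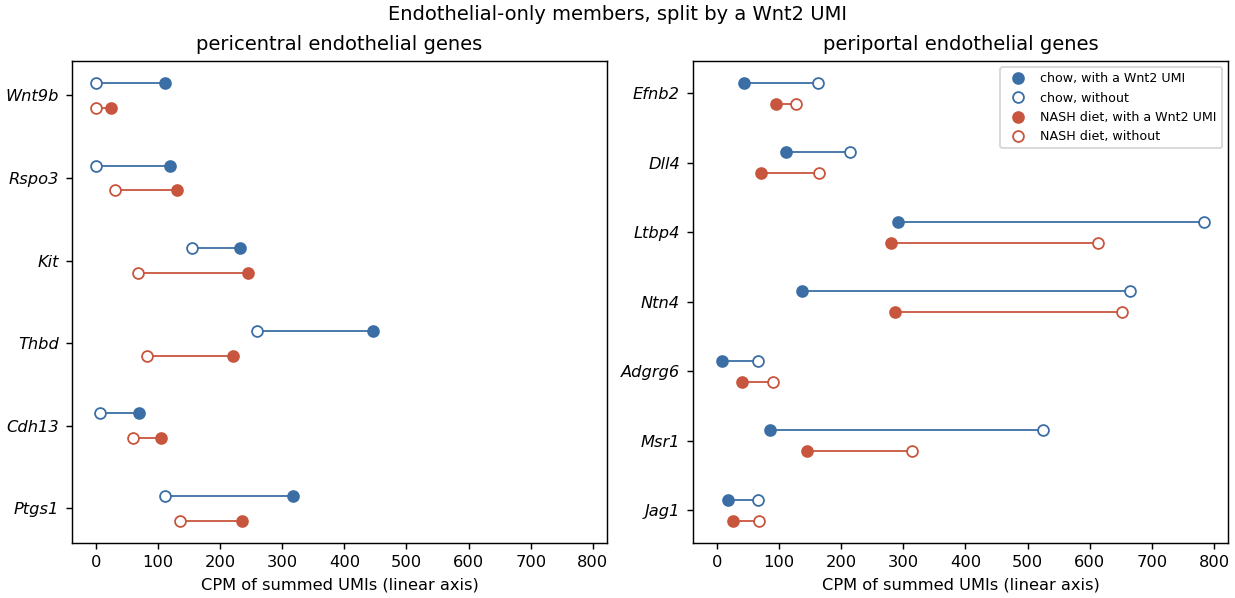
Levels in CPM of summed UMIs (linear x axis) of pericentral (left) and periportal (right) genes in endothelial-only members with (filled) and without (open) a Wnt2 UMI, for chow and the NASH diet. In both libraries each of the 6 pericentral genes is higher with Wnt2 and each of the 7 periportal genes lower.

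Across 3017 genes with at least 15 endothelial-only UMIs in each library, 0.53% were at least 2-fold higher with Wnt2 in both libraries and 0.365% at least 2-fold lower, 16 and 11 genes. Those named next were chosen after their values were seen. Gas6, a ligand of TAM receptors, had 403 and 148 CPM with and without Wnt2 in chow and 276 and 89.8 under the NASH diet. Ednrb was lower with Wnt2, at 8.57 and 141 CPM in chow and 135 and 412 on the NASH diet, the first of these from 1 UMI. Gja4 had 617 and 333 CPM with and without Wnt2 in chow and 150 and 120 under the NASH diet. Clec4g hardly followed the split, at 3070 and 3151 CPM in chow and 1549 and 1842 on the NASH diet. Fabp4 had 1029 and 821 CPM in chow and 2116 and 1168 on the NASH diet. The direction between libraries was the same with and without Wnt2 for Clec4g, Gja4, Ednrb and Fabp4. Of these, Ednrb was read in only 4 chow and 9 NASH diet endothelial-only members.

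Thinned shares of members with a UMI of Wnt2, or of Ntn4, had overlapping intervals between the diets. These are detection rates of single genes, and no member was classed as pericentral or periportal. With members thinned to 1000 UMIs, 9 of 67 chow members (13.4%, 6.33 to 24.0) and 13 of 72 NASH diet members (18.1%, 9.98 to 28.9) had a Wnt2 UMI. For Ntn4 these were 20.9% (11.9 to 32.6) and 26.4% (16.7 to 38.1). Unthinned, Wnt2 was read in 37.8% and 52.7% of members and Ntn4 in 47.3% and 67.6%. Of hepatocyte barcodes thinned alike, 0 of 2716 in chow, which allows up to 0.110%, and 0.0348% under the NASH diet had a Wnt2 UMI. Over all members the 7 pericentral genes had a median of −0.18 and the 7 periportal genes −0.17. Of these 14 genes 1 was past the fold, Cdh13, a cadherin without a membrane-spanning part, at 33.6 and 80.8 CPM in 11 and 27 members (1.06, 0.43 to 2.18).

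Cell cycle genes were read in few members. Of 8 such genes, added after the data had been seen, at least 5 had a UMI in 0 chow and 6 NASH diet members, 5 of the latter endothelial-only. These 6 held 530 of the 559 cell cycle UMIs of the NASH diet members, and chow members held 29. Mki67, the proliferation marker, had 4 UMIs in 4 chow members and 66 in 7 NASH diet members, and Cenpf, a kinetochore protein, 3 and 75 UMIs in 2 and 7. The rule genes made up 0.384% to 1.08% of UMIs in the 6 members, under the median of 1.25% for that library. Ccr2, a chemokine receptor of monocytes, had 2 and 59 UMIs in 2 and 6 members. Some of the genes at least 2-fold higher, Hmgb2 among them (98.7 and 429 CPM, 27.3% of its NASH diet UMIs in 1 barcode), therefore rest in part on few barcodes.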

How the data were processed

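Counts of UMIs per gene and barcode were used as the authors deposited them, 1 matrix per library. Per the submitters' processing notes, Cell Ranger 3.1.0 and Seurat were used with mm10, while the matrices are marked 3.0.2 per the file headers. UMIs were summed over members, scaled to CPM and compared as log2 ratios with 10 CPM added (Python 3.11.15, numpy 2.4.6, scipy 1.17.1, pandas 2.3.3), and the computation was tested on simulated data. With 1 library per diet there is no test. Members, gene lists and rules were chosen with earlier results of these data known. Named genes are the 10 rule genes, the 15 highest over other barcodes, the 6 highest and 6 lowest between diets, and, in each list, the 2 with most UMIs and the 2 with the largest ratio. Zonation, large vessel and lymphatic genes could also be named, and others are said to be chosen after their values were seen or are given as examples of a list. Shares used members thinned to 1000 UMIs. A merged matrix, which held 86.4% of the chow UMIs and all of the NASH diet ones, served as an alternative. No barcode was removed as a doublet. Gene positions are from GENCODE M21 (GRCm38). Fewer cells of a type and less RNA per cell cannot be told apart in summed UMIs.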

Additional observations from a re-analysis of the deposited data

How the results depend on the processing

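The log2 ratio of the endothelial shares was 0.04, and 0.73 with a mitochondrial limit of 30%, which left 68 and 62 members. The number of genes at least 2-fold higher in the NASH diet members went from 209 to 327 without members past a Kupffer gate, 338 with 2 CPM added in place of 10, 43 with 50 CPM added, 55 with members thinned to 1000 UMIs (1193 genes measured) and 376 with no filter on low counts. The number of genes at least 2-fold lower in the NASH diet members went from 173 to 335 with a mean over members, 310 with 2 CPM added, 55 with 50 CPM added and 90 with thinned members. The cause was not tested, beyond the fewer genes measured after thinning. Wfdc17 turned from −2.23 to 2.11 without members past a Kupffer gate. The list medians ran from −0.51 to −0.22 for scavenger receptors, −0.36 to −0.13 for angiocrine ligands, −0.34 to 0.06 for capillarization and −0.59 to −0.18 for interferon response. No paired analysis was possible because each diet has 1 library. With 74 members in each library, genes of few UMIs have wide intervals.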
